A study of Mus musculus with 6 samples.

Results

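The 9 chemokine receptor genes Ccr2, Ccr4, Ccr6, Ccr7, Ccr8, Ccr9, Cxcr3, Cxcr4 and Cxcr6, whose products guide regulatory T cells (Treg) to lymphoid organs, gut and inflamed tissue, were taken by gene symbol from the count tables of 6 libraries. All 9 had a row among the 23282 entries of each table. A filter on low counts kept 10475 entries, among them 8 of the receptors, and Ccr8 did not pass it. Treg, a class of CD4 T cells that keeps immune responses in check, came from spleens of C57BL/6 mice, were sorted by flow cytometry and gave total RNA without stimulation. There were 3 wild type libraries and 3 libraries labelled IPMK cKO, a conditional knockout of inositol polyphosphate multikinase, which phosphorylates inositol phosphates and phosphoinositides. The sources used here do not give the floxed allele, the Cre driver or the ages of the mice, so the cells in which Ipmk was deleted cannot be named. The titles call the libraries biological replicates. No library is tied to an animal, so p-values describe the spread between these samples alone, part of which may be technical. The comparison asked whether Treg without IPMK carry other levels of homing receptor transcripts than wild type Treg.

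Chemokine receptors are membrane-spanning proteins that couple to inhibitory G proteins and turn a cell toward a rising concentration of their ligand. Ccr7 and its ligands Ccl19 and Ccl21 bring T cells into the T zones of spleen and lymph nodes, and Cxcr4 answers to Cxcl12, a signal of bone marrow and lymphoid stroma. Ccr9 guides cells to Ccl25 in the small intestine, and Ccr6 to Ccl20 at mucosal surfaces. Cxcr3, Ccr2 and Cxcr6 serve entry into inflamed tissue, and Ccr4 and Ccr8 are linked to skin and other barrier tissues. Resting Treg are known for Ccr7, and effector Treg for receptors of tissue homing.

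The libraries held 7464546 to 8980395 counts, with 16.7% to 32.1% of them in the ribosomal RNA precursor Rn45s. Ipmk had 129, 77 and 99 counts in wild type against 3, 21 and 0 in IPMK cKO replicates 1 to 3, so the groups did not overlap, as for 10.4% of all entries tested. Whether these tags come from the deleted part of Ipmk is not known. Of the Treg markers 8 of 8 had counts, and their summed level was 2842 to 3400 CPM (counts relative to the scaled library size) in wild type, against 2519 to 3369 CPM in IPMK cKO. Foxp3, which defines Treg, was at 10.3, 80.6 and 29.0 CPM in wild type against 85.1, 72.0 and 82.3 CPM in IPMK cKO. Each list of markers of another cell type summed to at most 61.2 CPM in any library, and Cd8a, Cd14, Adgre1, Itgax and Ncr1 had no count. Other members of these lists did have counts. The highest mean of each list was that of Cd8b1, Cd79b, Xbp1, Ly6c2, Tcf4, Camp, Nkg7 or Hba-a1. Small shares of other cells are thus not excluded by the members without a count.

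Ccr9 had a 2.39-fold higher mean level in IPMK cKO, and every IPMK cKO library lay above every wild type library. Ccr2 and Cxcr3 had 2.07-fold and 1.65-fold lower means, each with all IPMK cKO libraries below all wild type libraries, though by a narrow gap. Cxcr6 was nearly absent from 2 of the 3 IPMK cKO libraries. Ccr7, Cxcr4, Ccr6 and Ccr4 overlapped between the groups. In bulk samples such as these, fewer cells that carry a receptor and less of its RNA in each cell cannot be told apart.

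None of these differences passed the test. By edgeR's quasi-likelihood test with Benjamini-Hochberg adjustment over all entries tested, 0 of the 8 tested receptors were called at an adjusted p of 0.05, as were 0% of all 10475 entries. Ipmk itself was not called in that fit (log2 fold change −3.51, edgeR unadjusted p = 0.0705, adjusted p = 0.9999). Over 18 alternative settings its adjusted p was 0.776 or more by the tools used. A receptor that was not called is therefore not shown to be unchanged. DESeq2 called 0 of the receptors and 1 higher and 3 lower genes in all, and limma-voom called 0 receptors. At an unadjusted p under 0.05 in edgeR there was 1 receptor, Ccr9, against 2.56% of all entries tested (1.37% higher and 1.19% lower). The groups did not overlap for 3 of the 8 receptors, against 10.4% of all entries tested (4.74% higher and 5.66% lower). The median log2 fold change of the 8 receptors was −0.04, with 3 above 0 and 5 below, and that of all entries tested was 0.03.

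**Figure D1:**
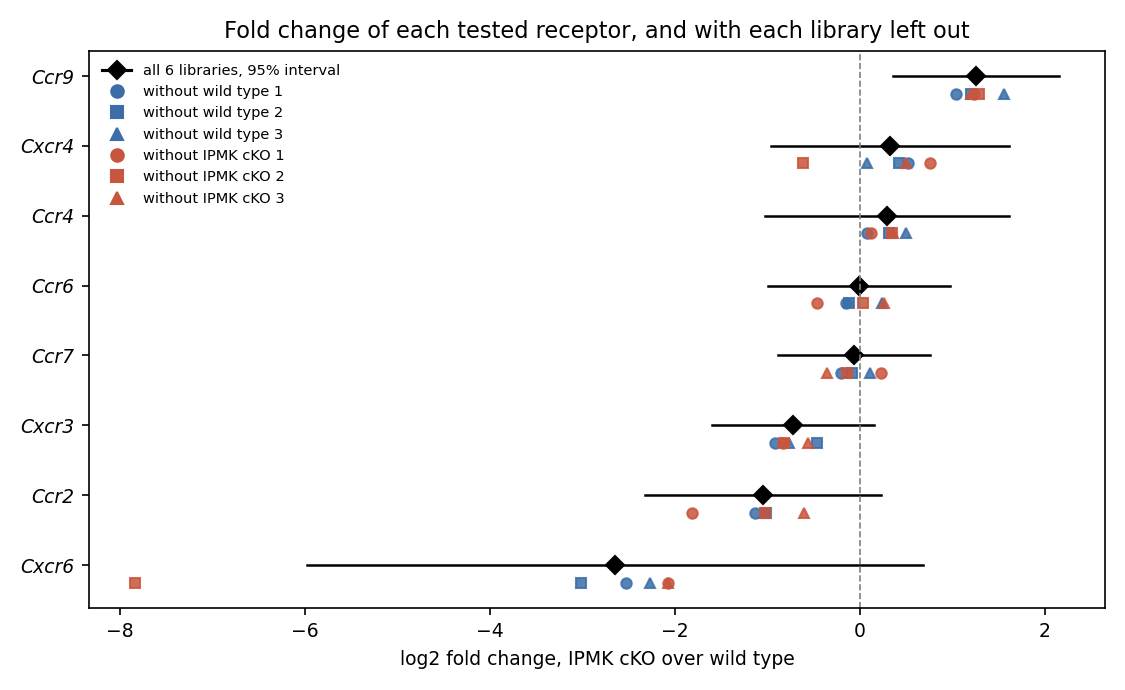
Log2 fold change of IPMK cKO over wild type for the 8 tested receptors (black diamonds, line: 95% interval of the edgeR fit), with the estimates after leaving out each library in turn below (blue: a wild type library left out, red: an IPMK cKO library left out). Among these receptors the interval lies wholly on one side of 0 for Ccr9 alone (0.36 to 2.15), and the estimate of Cxcr4 crosses 0 when IPMK cKO replicate 2 is left out.

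Among the receptors of lymphoid homing, Ccr7 (ENSMUSG00000037944, chr11:99144196-99155077 on mm10, minus strand) had the highest mean of the 9 receptors in both groups. It ranked 1 in every wild type library, and 3, 2 and 1 in IPMK cKO replicates 1 to 3. It was at 110, 137 and 172 CPM in wild type replicates 1 to 3 and at 73.9, 145 and 183 CPM in IPMK cKO replicates 1 to 3. The lowest and the highest library were both IPMK cKO, so the groups overlapped fully. Its log2 fold change was −0.06 (SE 0.37, 95% interval −0.88 to 0.76; unadjusted p = 0.869 in edgeR). This interval still includes a change of the size estimated for Cxcr3. The estimate was 0.11 without wild type replicate 3 and 0.22 without IPMK cKO replicate 1. Markers of dendritic cells, which also use Ccr7, had counts for 5 of 9 genes and summed to 34.3 to 61.2 CPM in wild type, against 25.7 to 50.9 CPM in IPMK cKO, with Itgax, Flt3, Clec9a and Cd209a at 0. Tcf4 and Bst2 had the highest means of that list.

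Cxcr4 (ENSMUSG00000045382, chr1:128588199-128592293, minus strand) varied widely in IPMK cKO. Its levels were 89.5, 81.0 and 44.2 CPM in wild type against 26.3, 175 and 68.0 CPM in IPMK cKO. IPMK cKO replicate 2 was 6.64-fold above replicate 1 of the same group, against 2.03-fold between the wild type extremes. On the log2 scale the fold change was 0.33 (SE 0.58, 95% interval −0.96 to 1.61), and it was −0.62 without IPMK cKO replicate 2. A single library thus set the sign of this estimate. Plasma cells also use Cxcr4; their markers had counts for 4 of 5 genes and summed to 32.8 to 54.2 CPM in wild type, against 19.1 to 36.6 CPM in IPMK cKO, with Tnfrsf17 at 0 and Jchain at 0 except in wild type replicate 3 (5.20 CPM). Xbp1 had the highest mean of that list.

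**Figure D2:**
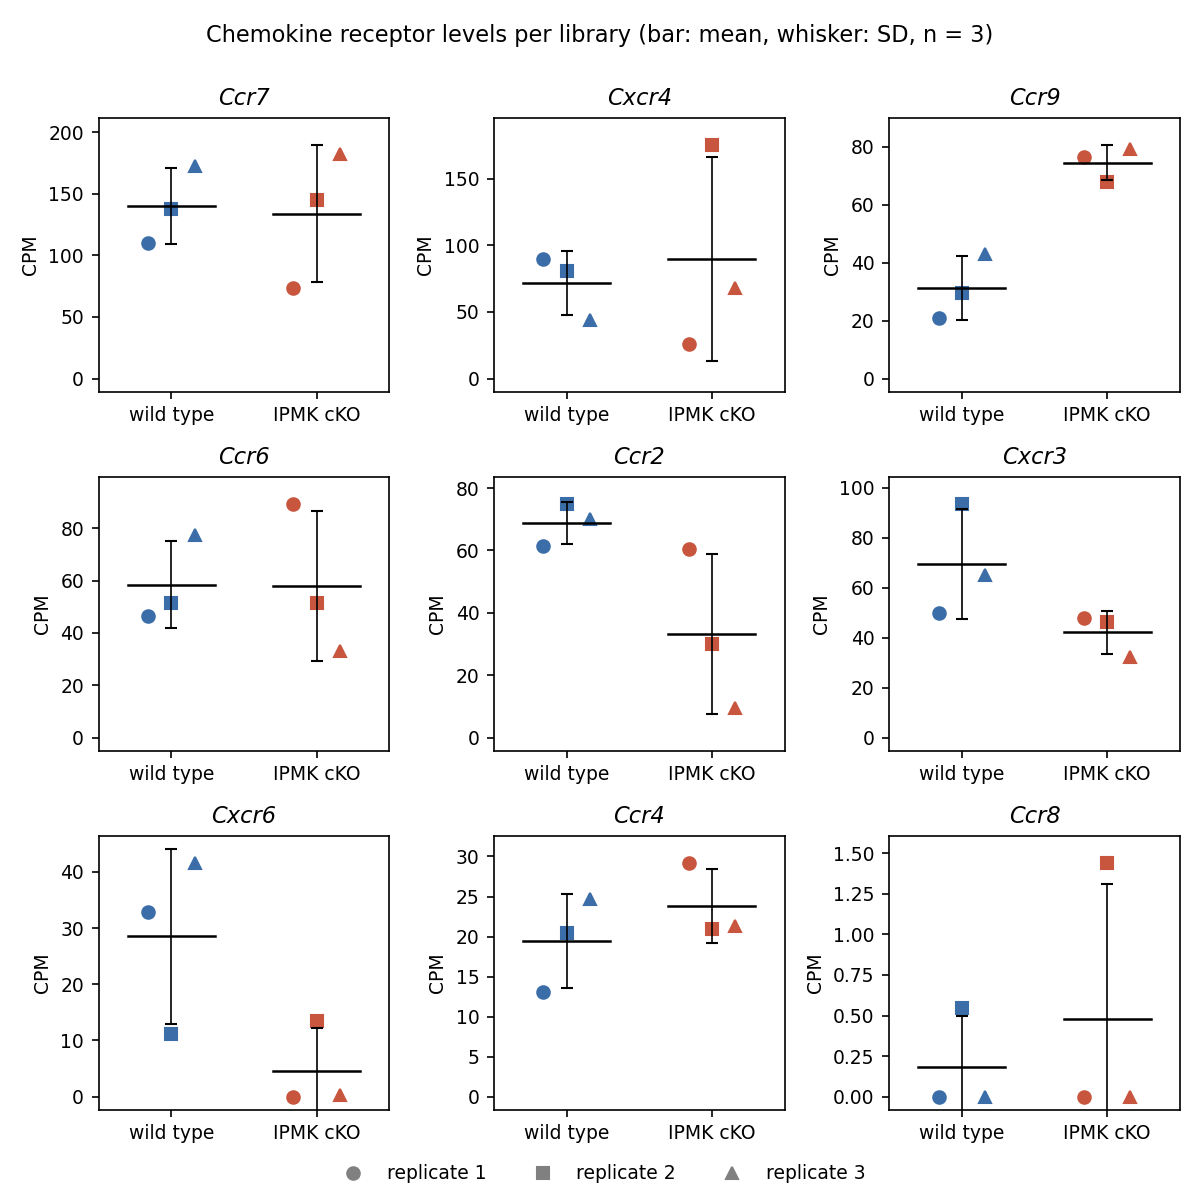
Level of each of the 9 receptors in CPM on TMM-scaled library sizes, by group (blue: wild type, red: IPMK cKO), with a symbol for each replicate, the mean as a bar and the SD as whiskers (n = 3), which end at the frame where they pass below 0. Ccr9 is at 21.1 to 43.1 CPM in wild type, against 67.8 to 79.3 CPM in IPMK cKO, with no overlap, while Cxcr4 and Ccr7 overlap.

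Among the receptors of gut and mucosa, Ccr9 (ENSMUSG00000029530, chr9:123678439-123784330, plus strand) had 175, 216 and 414 counts in wild type against 543, 519 and 781 in IPMK cKO replicates 1 to 3. These counts correspond to 21.1, 29.5 and 43.1 CPM against 76.4, 67.8 and 79.3 CPM. The gap between the groups, from 43.1 to 67.8 CPM, exceeded the SD of either, with means of 31.2 ± 11.1 and 74.5 ± 5.96 CPM (SD, n = 3 each). The log2 fold change was 1.25 (SE 0.41, 95% interval 0.36 to 2.15), with an unadjusted p of 0.0104 and an adjusted p of 0.9999 in edgeR. The exact permutation test of the 6 values gave p = 0.1, two-sided, the smallest that 3 against 3 libraries allow. Over 18 alternative settings the estimate ranged from 1.02 to 1.56. The unadjusted p was under 0.05 in 18 of these 18, and the adjusted p was 0.616 to 1.0 by the tools used.

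Plasmacytoid dendritic cells also carry Ccr9, and Siglech, only 1 of their markers, was at 0.602 CPM or less in every library. All dendritic cell markers together reached 34.3 to 61.2 CPM in wild type and 25.7 to 50.9 CPM in IPMK cKO. Tcf4 and Bst2, which plasmacytoid dendritic cells carry too, led this sum. The 2 markers of that list that were tested both had estimates higher in IPMK cKO (median 0.09 on the log2 scale). The part of such cells in the Ccr9 values was not tested. Among the Treg markers Foxp3 was, like Ccr9, lower in wild type replicates 1 and 3 than in any IPMK cKO library, but not in wild type replicate 2, and its part in the Ccr9 values was not tested. Counting is not stated to use strand, and 1932 annotated exon bases of Ccr9 are shared with AC165425.1 on the opposite strand, so tags of these transcripts cannot be told apart there. A further 269 are shared with Gm17200 on the same strand, where strand would not separate them either. Lztfl1, which also overlaps Ccr9 but shares 0 exon bases with it, was at 2.77, 11.1 and 26.1 CPM in wild type against 0, 2.87 and 2.23 CPM in IPMK cKO.

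Ccr6 (ENSMUSG00000040899, chr17:8236043-8257141, plus strand) was at 46.4, 51.2 and 77.4 CPM in wild type against 89.1, 51.5 and 33.2 CPM in IPMK cKO. The IPMK cKO libraries spanned the wild type range on both sides, and the group means were nearly equal, 58.4 ± 16.7 and 57.9 ± 28.5 CPM (SD, n = 3 each). Its estimated log2 fold change was −0.01 (SE 0.45), with a 95% interval of −1.0 to 0.97. Changes of either direction within that interval remain compatible with these values. B cells also use Ccr6; their markers had counts for 7 of 10 genes and summed to 15.9 to 28.4 CPM in wild type, against 17.6 to 41.5 CPM in IPMK cKO, with Pax5 and Blk at 0. Cd79b and Cr2 had the highest means of that list.

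Of the receptors for inflamed tissue, Ccr2 (ENSMUSG00000049103, chr9:124101950-124113557, plus strand) varied little in wild type, at 61.4, 74.8 and 70.1 CPM, and widely in IPMK cKO, at 60.4, 29.9 and 9.34 CPM. All IPMK cKO libraries lay below all wild type libraries, but IPMK cKO replicate 1 was within 1 SD of wild type replicate 1. The means were 68.7 ± 6.80 and 33.2 ± 25.7 CPM (SD, n = 3 each). The log2 fold change was −1.05 (SE 0.58, 95% interval −2.33 to 0.22; edgeR unadjusted p = 0.0968, adjusted p = 0.9999; exact permutation p = 0.1). Leaving out IPMK cKO replicate 3 gave −0.61 and leaving out IPMK cKO replicate 1 gave −1.82, so its size turned on these libraries. Monocytes and macrophages also use Ccr2; their markers had counts for 5 of 9 genes and summed to 7.07 to 12.9 CPM in wild type, against 0.281 to 24.3 CPM in IPMK cKO, with Adgre1, Fcgr3, Cd14 and Marco at 0. Ly6c2 and Cd68 had the highest means of that list. Ccr2 is alike in sequence to other receptor genes, and the sources used here do not say how reads that match several genes were counted.

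Cxcr3 (ENSMUSG00000050232, chrX:101731535-101734269, minus strand) was at 50.1, 93.3 and 65.0 CPM in wild type against 48.0, 46.1 and 32.2 CPM in IPMK cKO. The libraries of the groups did not overlap, with wild type replicate 1 only just above IPMK cKO replicate 1. The log2 fold change was −0.72 (SE 0.40, 95% interval −1.60 to 0.16; edgeR unadjusted p = 0.0982, adjusted p = 0.9999; exact permutation p = 0.1), and it was −0.47 without wild type replicate 2. Tbx21, the transcription factor known to drive Cxcr3, overlapped between the groups at 18.1, 12.0 and 20.3 CPM in wild type against 1.41, 18.8 and 24.6 CPM in IPMK cKO. Natural killer cells also use Cxcr3 and Cxcr6; their markers had counts for 4 of 7 genes and summed to 21.6 to 29.2 CPM in wild type, against 13.7 to 51.8 CPM in IPMK cKO, with Ncr1, Klrd1 and Klre1 at 0. Nkg7 and Klrb1c had the highest means of that list.

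Cxcr6 (ENSMUSG00000048521, chr9:123806475-123811760, plus strand), the receptor of Cxcl16, had 273, 82 and 399 counts in wild type, against 0, 103 and 2 counts in IPMK cKO replicates 1 to 3. These are 32.8, 11.2 and 41.5 CPM against 0, 13.5 and 0.203 CPM. IPMK cKO replicate 2 lay above wild type replicate 2, so the groups overlapped. For IPMK cKO replicate 1, a count of 0 is compatible with a level of up to 0.422 CPM (3 counts, counting error alone). The log2 fold change was −2.65 with an SE of 1.51 and a 95% interval of −5.98 to 0.69 (edgeR unadjusted p = 0.108; exact permutation p = 0.2). Without IPMK cKO replicate 2 the groups no longer overlapped, as for 24.4% of all entries in that fit, and the estimate was −7.84, a value that depends on the prior count because the remaining IPMK cKO libraries held 0 and 2 counts.

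Empty entries at the level of Cxcr6 were not evenly spread over the libraries. Of the 3143 entries with a mean of 10 to 30 CPM, 2.96%, 0.0318% and 0.605% had no count in wild type replicates 1 to 3. These shares were 3.50%, 0.223% and 2.32% for the IPMK cKO replicates. The IPMK cKO libraries with the least Cxcr6 were those of that group with more empty entries. In wild type it was otherwise. Replicate 2, with the fewest empty entries, had the least Cxcr6 (11.2 CPM), and replicate 1, with the most, had 32.8 CPM. The part of empty entries in the Cxcr6 values was not tested.

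Of the barrier receptors, Ccr4 (ENSMUSG00000047898, chr9:114490316-114504916, minus strand) was at 13.1, 20.5 and 24.7 CPM in wild type against 29.1, 20.9 and 21.3 CPM in IPMK cKO, with overlap. Its log2 fold change was 0.29 (SE 0.60, 95% interval −1.03 to 1.61), and it was 0.07 without wild type replicate 1. Ccr8 (ENSMUSG00000042262, chr9:120092114-120094906, plus strand), known from Treg of skin and tumours, was close to absent. It had 4 counts in wild type replicate 2, 11 in IPMK cKO replicate 2 and 0 in the other libraries, where 0 allows 0.304 to 0.422 CPM. No fold was drawn from these counts.

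The start regions of Ccr9, Ccr2, Cxcr3 and Cxcr6 are shown because these receptors have the largest fold changes, higher for Ccr9 and lower for the others. Each sequence is the 250 bases before the annotated start, 5′ to 3′, from RefSeq on GRCm38.p6, whose table matched 8 of the 9 receptors with 9 windows. These RefSeq starts differ from the gene bounds given above, which are from GENCODE. The Ccr9 window lies wholly inside those bounds, and the windows of Ccr2, Cxcr3 and Cxcr6 overlap theirs in part. Capitals mark matches on either strand to the letters of 9 motifs.

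Ccr9, chr9:123766961-123767210, plus strand: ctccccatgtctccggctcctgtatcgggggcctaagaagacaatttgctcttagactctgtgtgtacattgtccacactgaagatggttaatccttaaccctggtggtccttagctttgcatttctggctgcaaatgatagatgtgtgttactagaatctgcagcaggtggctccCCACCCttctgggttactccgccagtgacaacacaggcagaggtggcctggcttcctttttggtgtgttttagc

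Ccr2, chr9:124101933-124102182, plus strand: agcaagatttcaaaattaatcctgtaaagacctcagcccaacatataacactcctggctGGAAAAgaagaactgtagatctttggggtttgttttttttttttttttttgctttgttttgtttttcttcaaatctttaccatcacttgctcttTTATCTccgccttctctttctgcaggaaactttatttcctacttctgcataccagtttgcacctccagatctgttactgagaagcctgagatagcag

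Cxcr3, chrX:101734148-101734397, minus strand: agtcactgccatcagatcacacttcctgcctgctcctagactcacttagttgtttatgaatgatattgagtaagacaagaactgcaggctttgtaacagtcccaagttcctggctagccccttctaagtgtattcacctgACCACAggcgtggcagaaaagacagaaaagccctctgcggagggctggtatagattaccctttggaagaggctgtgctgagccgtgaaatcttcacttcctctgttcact

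Cxcr6, chr9:123806227-123806476, plus strand: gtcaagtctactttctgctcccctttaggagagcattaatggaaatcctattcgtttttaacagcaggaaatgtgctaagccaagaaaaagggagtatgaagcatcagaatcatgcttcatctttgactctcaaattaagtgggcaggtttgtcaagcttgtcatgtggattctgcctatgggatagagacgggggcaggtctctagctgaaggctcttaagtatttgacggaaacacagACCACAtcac

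In these windows the capitals are a KLF match (letters CCACCC) in Ccr9, 74 bases before the start at its first base. Ccr2 held an NFAT match (GGAAAA) 191 bases and a GATA match (AGATAA, on the other strand) 97 bases before the start. A RUNX match (TGTGGT, on the other strand) stood 110 bases before the start in Cxcr3 and 10 bases before it in Cxcr6. Such short strings were common: 28.1% of all 32851 windows of this length held the KLF letters, 20.4% the NFAT letters, 9.99% the GATA letters and 14.0% the RUNX letters. NFAT, a factor that calcium signals activate, had a match in 1 of the 9 receptor windows, that of Ccr2.

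The T-box letters GGTGTGA and the FOXO letters GTAAACA were in 0 of the 9 receptor windows, against 3.33% and 3.17% of all windows. The AP-1 letters TGANTCA were found in Ccr4, and the ROR letters AGGTCA and STAT letters TTCNNNGAA in Ccr6, against 6.75%, 14.0% and 7.02% of all windows. Ccr8 held KLF and GATA letters and Ccr6 GATA letters. A match describes letters only, and in the 4 sequences shown no match overlapped another.

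Because the receptors were counted in the same libraries, their make-up can be read without any scaling between libraries. The 9 receptors together had 2865 to 5173 counts per library. Their summed level was 487 ± 57.7 CPM in wild type, against 460 ± 79.6 CPM in IPMK cKO (SD, n = 3 each), with overlapping libraries. Ccr9 made up 4.96% (95% Wilson interval 4.29% to 5.73%), 5.91% (5.19% to 6.72%) and 8.0% (7.29% to 8.77%) of these counts in wild type. In IPMK cKO its shares were 19.0% (17.6% to 20.4%), 12.3% (11.3% to 13.3%) and 18.6% (17.5% to 19.8%). The intervals of the groups did not meet; they cover no more than counting error, because without molecular identifiers reads are not independent molecules. Ccr9 ranked 7, 6 and 6 among the 9 receptors in wild type, against 2, 3 and 2 in IPMK cKO.

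The ratio of Ccr9 to Ccr2 counts was 0.343, 0.395 and 0.614 in wild type, against 1.27, 2.27 and 8.49 in IPMK cKO. Ccr9 had fewer counts than Ccr2 in each wild type library and more in each IPMK cKO library. The ratio of Ccr9 to Cxcr3 was 0.421, 0.316 and 0.662 against 1.59, 1.47 and 2.46, and that of Ccr9 to Ccr7 was 0.191, 0.215 and 0.25 against 1.03, 0.467 and 0.434. These ratios were chosen after the values were seen and are given as a description. By contrast the ratio of Ccr2 to Ccr7, 0.557, 0.545 and 0.407 in wild type, was 0.817, 0.206 and 0.0511 in IPMK cKO, so that it was highest in IPMK cKO replicate 1.

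**Figure D3:**
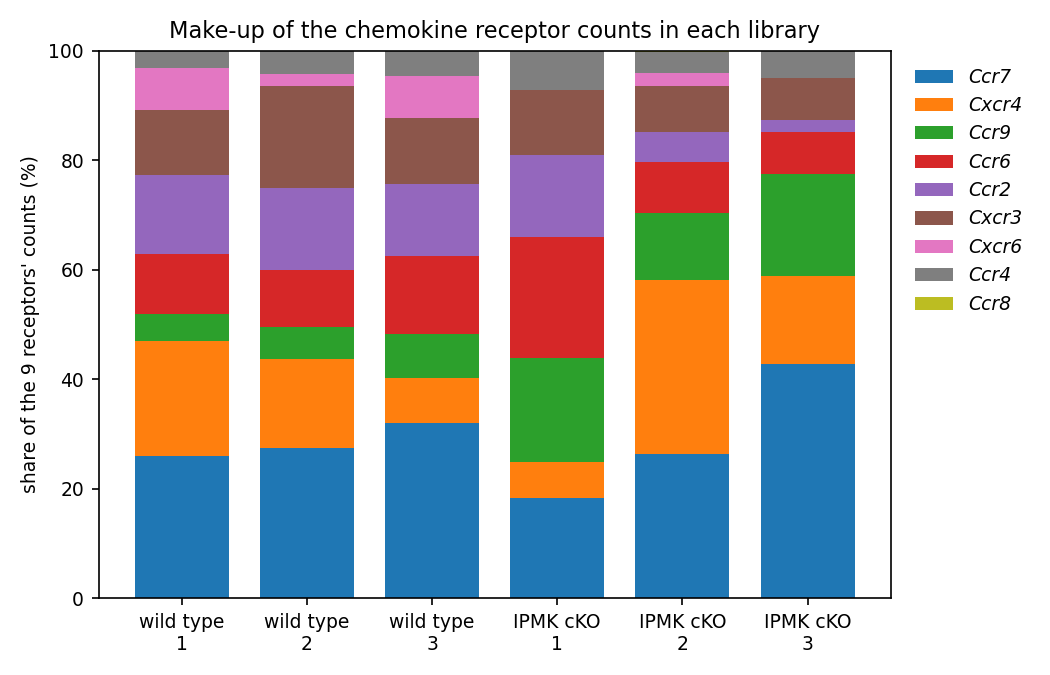
Share of the counts of the 9 receptors held by each receptor, in percent, as stacked bars for the 6 libraries. The green Ccr9 segment is 4.96% to 8.0% in wild type and 12.3% to 19.0% in IPMK cKO, and the purple Ccr2 segment is 13.0% to 15.0% in wild type and 15.0%, 5.43% and 2.19% in the IPMK cKO libraries.

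The order of the levels was clear at few steps. Tags come from the 3′ end of each transcript, so levels in CPM are not divided by gene length. In wild type Ccr7 stood first, at 140 ± 31.0 CPM, above Cxcr4 by more than the larger SD and in 3 of 3 libraries. Cxcr4 (71.6 ± 24.1 CPM), Cxcr3 (69.5 ± 22.0 CPM), Ccr2 (68.7 ± 6.80 CPM) and Ccr6 (58.4 ± 16.7 CPM) followed, and no direct neighbours among these differed by more than the larger SD. A step beyond the SD separated Ccr6 from Ccr9. Of Ccr9 (31.2 ± 11.1 CPM), Cxcr6 (28.5 ± 15.6 CPM) and Ccr4 (19.4 ± 5.84 CPM), no direct neighbours differed in this way, and Ccr8 was last.

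In IPMK cKO the order was Ccr7 (134 ± 55.2 CPM), Cxcr4 (89.7 ± 76.6 CPM), Ccr9 (74.5 ± 5.96 CPM), Ccr6 (57.9 ± 28.5 CPM), Cxcr3 (42.1 ± 8.64 CPM), Ccr2 (33.2 ± 25.7 CPM), Ccr4 (23.8 ± 4.63 CPM), Cxcr6 (4.55 ± 7.71 CPM) and Ccr8. In that group Ccr4 exceeded its lower neighbour, Cxcr6, by more than the larger SD, and no other neighbours differed in this way (SD, n = 3 in each case).

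Ccr9, Cxcr6 and Ccr2 are neighbours in a cluster of receptor genes on chromosome 9, with 22145 bases between Ccr9 and Cxcr6 and 290190 between Cxcr6 and Ccr2. Within this cluster Ccr9 had a higher mean in IPMK cKO, while Cxcr6 and Ccr2 had lower means. Between Cxcr6 and Ccr2 lie the receptor genes Xcr1, Ccr1, Ccr1l1 and Ccr3. Ccr1 and Ccr1l1 had no count, Xcr1 was at 0.361 to 9.88 CPM in wild type, against 0.653 to 1.13 CPM in IPMK cKO, and Ccr3 reached 11.1 CPM in wild type replicate 3 and at most 1.83 CPM elsewhere.

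Cxcr6 lies wholly inside Fyco1 (chr9:123789500-123851899), which runs on the opposite strand and shares 0 annotated exon bases with it. Fyco1 was at 53.4, 55.8 and 63.4 CPM in wild type against 16.6, 70.2 and 29.6 CPM in IPMK cKO (a log2 fold change of −0.57 with SE 0.52). Like Cxcr6, Fyco1 was lower in IPMK cKO replicates 1 and 3 than in replicate 2, and its part in the Cxcr6 counts was not tested.

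**Figure D4:**
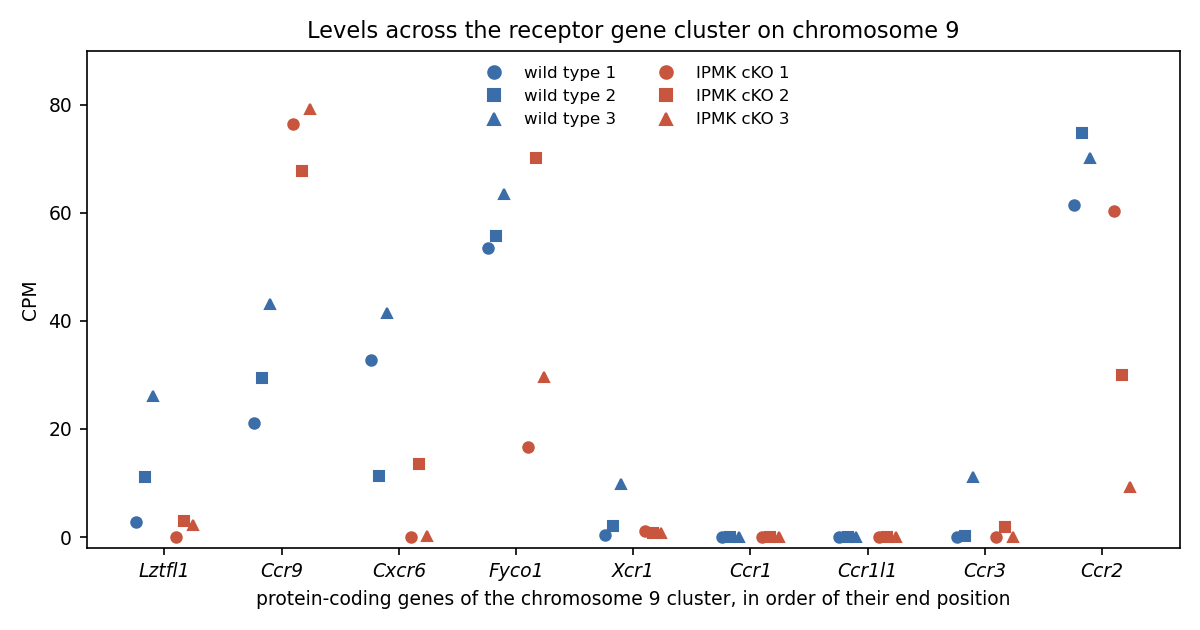
Level in CPM of the protein-coding genes from Lztfl1 to Ccr2 on chromosome 9, in order of their end positions, with a symbol for each of the 6 libraries (blue: wild type, red: IPMK cKO). Ccr9 is higher in all 3 IPMK cKO libraries, Cxcr6 is near 0 in IPMK cKO replicates 1 and 3, and Ccr1 and Ccr1l1 are at 0 throughout.

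Of the 15 other chemokine receptors, 9 had a count and 4 were tested, with 1 estimate above 0 and 3 below, a median log2 fold change of −0.38 (0.03 over all entries) and 0 called. The follicular receptor Cxcr5 was at 48.2, 54.9 and 23.9 CPM in wild type against 65.6, 30.05 and 9.44 CPM in IPMK cKO (a log2 fold change of −0.28 with SE 0.66). Ccr10, a receptor of skin and mucosal homing, was at 3.74 to 6.70 CPM in wild type against 0, 0 and 6.09 CPM in IPMK cKO. Both overlapped between the groups.

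Ligands of the 9 receptors were scarce: 10 of 16 had a count and 2 were tested, 1 above and 1 below 0, with a median of −1.28 and 0 called. Cxcl10, a ligand of Cxcr3, was at 6.02, 7.24 and 14.0 CPM in wild type against 0, 1.96 and 1.52 CPM in IPMK cKO, without overlap (log2 fold change −2.95, SE 1.82, edgeR unadjusted p = 0.133). Ccl25, the ligand of Ccr9, was at 0 to 6.86 CPM in wild type, against 0 to 6.53 CPM in IPMK cKO. Of 4 chemokines that T cells make, Ccl5 was tested, at 31.8, 51.8 and 59.5 CPM in wild type against 3.94, 37.2 and 22.6 CPM in IPMK cKO, with overlap (log2 fold change −1.16, SE 0.70).

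Of 33 genes that carry the receptor signal to actin and integrins, 30 were tested, with 15 above 0 and 15 below, a median log2 fold change of 0.01 and 0 called. The groups did not overlap for 0 higher and 4 lower genes, the G protein subunits Gnai3 and Gng2 and the small GTPases Rac1 and Cdc42. Over all entries tested this held for 10.4% (4.74% higher and 5.66% lower), so 4 of 30 is near that share. Gng2 was at 60.4, 61.9 and 58.0 CPM in wild type against 24.6, 44.0 and 22.5 CPM in IPMK cKO (a log2 fold change of −0.98 with SE 0.43). Gng10 also had a lower estimate (−0.97, SE 0.43) and the kinase Stk4 a higher one (0.81, SE 0.36), both with overlap. Gnai2, an inhibitory G protein subunit through which these receptors signal in lymphocytes, was at 1046 to 1117 CPM in wild type, against 936 to 1666 CPM in IPMK cKO. Of the kinases, arrestins and RGS proteins that switch receptor signals off, 12 were tested, with 6 above 0 and 6 below, a median of 0.02 and 0 called. Rgs16, which speeds the shut-off of G proteins, was the 1 gene of that list without overlap, at 26.1, 14.8 and 11.6 CPM in wild type against 0.563, 8.23 and 7.41 CPM in IPMK cKO. With 12 genes tested, 1 without overlap is also near the 10.4% of all entries. Rgs10 (log2 fold change 0.58, SE 0.34) and Arrb2 (0.66, SE 0.65) had higher estimates, with overlap.

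Of 25 transcription factors known to act on chemokine receptor genes, 25 were tested, with 12 above 0 and 13 below, a median of −0.03 and 0 called. The groups did not overlap for 4 higher factors, Satb1, Bach2, Eomes and Lef1, and 4 lower ones, Batf, Prdm1, Maf and Ahr. Over all entries tested, 4.74% were higher and 5.66% lower without overlap. Satb1, a chromatin organizer, was at 248, 347 and 346 CPM in wild type against 752, 556 and 602 CPM in IPMK cKO. Maf, a factor of effector Treg, was at 440, 519 and 293 CPM in wild type against 170, 258 and 214 CPM in IPMK cKO. Klf2, which favours lymphoid recirculation, overlapped between the groups at 352 to 443 CPM in wild type, against 389 to 697 CPM in IPMK cKO.

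Of 23 molecules that act with the receptors in homing, 20 were tested, with 8 above 0 and 12 below, a median of −0.21 and 0 called. Those without overlap were 2 higher, among them Itga6, and 4 lower, Gcnt1, Itgb1, Klrg1 and Icam1, against 4.74% higher and 5.66% lower of all entries tested. Itgb7, a chain of the gut-homing integrin that acts with Ccr9, overlapped between the groups at 431 to 575 CPM in wild type, against 366 to 586 CPM in IPMK cKO.

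The genes most alike in pattern were sought for each receptor with a mean of at least 20 CPM, as the highest Pearson correlation of log2 CPM over the 6 libraries among 5754 genes. With so many genes and 6 libraries that share their depth and scaling, high values are a description only. For Ccr9 they were Gapvd1 (r = 0.98, Spearman rho = 1) and Carns1 (r = 0.97, rho = 1), and without the 2 libraries farthest from the median of Ccr9 r was 0.97 and 0.99. For Cxcr3 they were Mast4 (r = 0.96, rho = 0.94) and Arhgap26 (r = 0.96, rho = 1), with r of 0.98 and 0.99 in the remaining libraries. For Ccr2 they were Lman2 (r = 0.99, rho = 0.49) and Cpm (r = 0.97, rho = 0.77), and there r was −0.73 and −0.44 without the 2 farthest libraries, so these likenesses rested on those libraries. Among the receptors themselves Ccr2 and Cxcr3 were the most alike (r = 0.81), and Ccr9 and Cxcr6 the most opposed (r = −0.73). These values pool both groups, so differences between the groups enter them. Cxcr6 also had 0 and 2 counts in IPMK cKO replicates 1 and 3, and these pairs were not checked without the farthest libraries.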

How the data were processed

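Treg RNA from 3 wild type and 3 IPMK cKO libraries was read as 3′ tags (Lexogen QuantSeq), per the labels' protocols. Each deposited file holds raw whole-number counts per gene symbol, 23282 entries each, per the file headers and values. Bowtie2, edgeR, mm10 and hg19 are named, per the submitters' processing notes, with neither role nor version. The counting program, its strand setting and any filter were not given in the sources used here. Libraries were grouped by title, and the third of each group carries the number 4 in its column header.

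Entries were filtered with filterByExpr (minimum count 10), scaled by TMM and tested with edgeR 4.0.16 in R 4.3.3 (quasi-likelihood, Benjamini-Hochberg over 10475 entries, threshold 0.05). The SE is the estimate over the square root of F. Levels are CPM on TMM-scaled sizes, where a single count was worth 0.101 to 0.141 CPM. Exact permutation tests, two-sided, used log2(CPM + 0.5), and log2 CPM for likeness had a prior count of 2. The fit was tested on simulated counts. Alternatives used DESeq2 1.42.0, limma 3.58.1, other scalings and filters, a replicate block and left-out libraries. Named genes were the 9 receptors, Ipmk, up to 3 genes with the smallest p in each other list, and the 2 genes most like each receptor. For marker lists of other cell types the rule took the 2 genes with the highest mean CPM. Others, among them most markers at 0, were named after their values were seen. The receptors and lists were chosen with earlier results of these data known. Coordinates are from GENCODE M21 (mm10), which held 96.1% of the tested symbols, and promoters from RefSeq (GRCm38.p6). Some genes of the lists are not reported here.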

Additional observations from a re-analysis of the deposited data

How the results depend on the processing

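Over 18 alternative settings for the 8 tested receptors, 135 estimates kept their direction and 9 reversed, and 0 receptors were called in any. Ccr9, Ccr2, Cxcr3 and Cxcr6 kept their direction in 18 of 18. Reversed were Ccr4 without both libraries numbered 1 (−0.10), Ccr7 in that setting (0.083) and with limma-voom sample weights (0.040), and estimates with a single library left out. With a library left out, Ccr6 ranged from −0.47 to 0.27, Ccr7 from −0.35 to 0.22 and Cxcr4 from −0.62 to 0.75. In those fits 3 to 5 receptors were above 0 and 3 to 5 below, 1 to 2 were higher and 2 to 3 lower without overlap (fewer libraries also raised the share of all entries without overlap, from 10.4% to between 16.4% and 24.4%), and 0 to 1 genes were called lower (1 without IPMK cKO replicate 1). Ccr4 joined those higher without wild type replicate 3, where 16.4% of all entries did not overlap. Cxcr6 joined those lower without wild type replicate 2 (2172 of 10880 entries) or IPMK cKO replicate 2 (24.4%). Over all genes, DESeq2 called 1 higher and 3 lower, and 1 was called lower without both libraries numbered 1 and with sample weights; the cause was not tested. Library totals without scaling factors moved the median of all genes from 0.03 to −0.17, and Ccr9 was then 1.05.

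With the replicate block Ccr9 was 1.31, Ccr2 −1.40, Cxcr3 −0.70 and Cxcr6 −5.97, with 0 genes called. In that edgeR fit Ccr2 (unadjusted p = 0.0491) and Cxcr6 (unadjusted p = 0.0445) also fell under 0.05. The share of all entries under 0.05 in that fit is not given here, so nothing particular to the receptors is drawn from this. Over the 18 settings the unadjusted p was under 0.05 in 18 for Ccr9, 7 for Ccr2, 4 for Cxcr6 and 3 for Cxcr3. Same-numbered libraries deviated together weakly (r = 0.0454, 0.0877 and 0.0265). Differently numbered ones had r of −0.0609 to −0.00106, so each correlated best with its own number. The numbers are tied to no animal, litter or day, so the block was used as an alternative and not in the main fit. In limma-voom Ccr2 was −1.55 and Cxcr6 −5.41. The alternatives for the other lists were added after seeing the data; the median of the ligands was −2.96 with at least 5 CPM in 3 libraries, and that of the transcription factors −0.24 with library totals and −0.28 without IPMK cKO replicate 2. Depth limits Ccr8, which had at most 11 counts in a library.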
